A study of Mus musculus with 2 samples.

Results

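Collagen chain genes were followed in ureters of mouse embryos at E14.5 in which Rbpj, the transcription factor of the Notch pathway, was deleted with Cre. A gene was counted as a collagen chain gene when the array's design named it Col, a number, the letter a and a number, which gave 44 genes with 69 probes among the 30011 gene names and 39429 probes of the array. Of these, 39 genes (57 probes) passed the filter on dim probes, as did 20495 genes in all. The filter asked, on each array, for at least 2 of a probe's 4 spots well above background in at least 1 of the colours. The 39 comprised all 11 fibrillar chains, 7 of 8 basement membrane chains, 8 of 9 FACIT chains (fibril-associated collagens with interrupted triple helices) and 13 of 16 other chains. Col4a3, Col6a5, Col10a1, Col19a1 and Col28a1 did not pass.

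Collagen chains carry a Gly-X-Y repeat, in which glycine recurs at a fixed spacing so that chains can wind around one another into a triple helix. Fibrillar collagens build the tension-bearing fibrils of connective tissue, FACIT collagens decorate the surface of those fibrils, and type IV collagens form the network of basement membranes under epithelia and around smooth muscle and vessels. The ureter at this stage is an epithelial tube wrapped in mesenchyme that gives rise to smooth muscle and a fibrous outer coat, and most fibrillar collagen is made by mesenchymal cells.

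The study compared Rbpj-cKO embryos, of genotype Tbx18(cre/+);Rbpj(fl/fl), with control embryos of genotype Rbpj(fl/?), all on the NMRI strain. Cre was expressed from the Tbx18 locus, which is known to be active in the mesenchyme around the ureteric epithelium and not in the epithelium itself. A ureter was dissected whole, so every value is an average over its epithelium, mesenchyme, vessels, nerves and blood. Each of the 2 arrays carried Rbpj-cKO RNA in one colour and control RNA in the other, with 150 ng of total RNA as input. On replicate 1 the embryos were male and Rbpj-cKO was red (AlexaFluor647), and on replicate 2 they were female and Rbpj-cKO was green (AlexaFluor555). Sex and dye orientation therefore cannot be told apart. Neither the number of embryos behind a channel nor a litter is given in the labels, so the spread between the replicates may be partly technical.

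The Gly-X-Y repeat can be read without a break along the whole of 2 of the 69 collagen probes, which are shown for that. Probes that lie only partly in a repeat, or in a broken one, were not looked for. Each of the 2 probes has 60 bases, and capitals mark its 6 glycine codons, which recur without a break. Probe coordinates are on build mm9, plus strand, chr4:47283786-47283845 for Col15a1 and chr3:130270497-130270556 for Col25a1. Such a frame, open from end to end with glycine at each repeat position, was found in 5 of the other 39360 probes.
Col15a1: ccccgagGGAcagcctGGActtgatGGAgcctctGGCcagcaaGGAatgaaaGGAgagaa
Col25a1: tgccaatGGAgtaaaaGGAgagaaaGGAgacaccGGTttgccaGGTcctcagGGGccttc
The Col15a1 probe gave log2 ratios of Rbpj-cKO over control of -0.14 on replicate 1 and -0.059 on replicate 2, and the Col25a1 probe gave -0.0084 and 0.16. Neither is the brightest probe of its gene, which is the one that stands for the gene below.

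Promoter windows were taken from RefSeq on build GRCm38.p6 and run from 250 bases before to 50 bases after a gene's start. The table matched 35 of the 44 genes, with 38 windows. Those of Col4a1 and Col4a2 are shown because the 2 genes lie head to head, and that of Col4a5 because it holds the letters marked below. Col4a1 (chr8:11312777-11313076, minus strand) and Col4a2 (chr8:11312555-11312854, plus strand) are read in opposite directions, and capitals mark the 78 bases that both windows share. In the window of Col4a5 (chrX:141475169-141475468, plus strand) capitals mark the letters GTGGGAA, a form of the motif that Rbpj binds, whose first base lies at -82 from the gene's start.
Col4a1: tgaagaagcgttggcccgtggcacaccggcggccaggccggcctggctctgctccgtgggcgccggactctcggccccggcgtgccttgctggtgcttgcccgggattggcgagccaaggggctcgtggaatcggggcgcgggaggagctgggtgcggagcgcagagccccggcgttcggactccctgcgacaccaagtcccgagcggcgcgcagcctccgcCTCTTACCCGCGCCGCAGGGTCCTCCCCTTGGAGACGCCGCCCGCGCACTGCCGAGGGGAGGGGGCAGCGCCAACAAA
Col4a2: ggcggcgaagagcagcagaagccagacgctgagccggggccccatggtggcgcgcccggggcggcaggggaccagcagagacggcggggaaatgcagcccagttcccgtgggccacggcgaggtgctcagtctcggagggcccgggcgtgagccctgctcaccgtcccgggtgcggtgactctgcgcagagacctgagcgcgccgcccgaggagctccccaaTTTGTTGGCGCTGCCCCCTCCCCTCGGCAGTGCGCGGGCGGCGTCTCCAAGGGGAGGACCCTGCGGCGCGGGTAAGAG
Col4a5: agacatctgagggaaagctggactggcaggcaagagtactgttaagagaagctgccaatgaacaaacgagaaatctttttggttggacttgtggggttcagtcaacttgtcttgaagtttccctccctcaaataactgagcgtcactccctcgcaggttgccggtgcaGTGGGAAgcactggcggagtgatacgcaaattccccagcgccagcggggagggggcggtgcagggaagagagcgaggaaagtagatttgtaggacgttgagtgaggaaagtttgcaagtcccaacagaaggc
On either strand (GTGGGAA or TTCCCAC), the motif stood in 2 of the 38 collagen windows (5.26%), those of Col4a5 and Col10a1. It stood in 2097 of all 32851 windows (6.38%). A match describes letters in a window and is not a measured binding site, and a window without one says nothing of Rbpj.

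Before the results, the labels were set against the arrays. Rbpj had log2 ratios of -1.13 and -0.63 by its brighter probe and of -0.48 and -0.37 by the other, so the targeted gene was below control in both pairs. All 7 urothelial and all 6 smooth muscle markers were measured. The Y-linked Ddx3y and Eif2s3y were well above background on 4 of 4 spots in the female Rbpj-cKO channel, at 123.1 and 218.0, or 8.04% and 8.89% of the male Rbpj-cKO signal. Female control gave 2.12 for Ddx3y and 13.6 for Eif2s3y, and 0 and 2 of the 4 spots passed as well above background there. The channels of replicate 2 thus differed in Y-linked signal, and the part of this in the collagen ratios was not tested. Xist, the RNA of the inactive X chromosome, gave 1398 in Rbpj-cKO and 1795 in control on replicate 2 by its brighter probe. On replicate 1 that probe gave 2.31 and 3.95, with 0 of 4 spots well above background. Both channels of replicate 2 thus held the female signal that their labels call for. Each gene's replicate 1 ratio is its value without replicate 2. Pearson's r between the ratios of replicate 1 and replicate 2 was -0.352 across all 20495 genes and -0.0535 across the 39 collagen genes. Both are descriptions across genes, which are not independent replicates. Each channel had 67.7% to 70.1% of its non-control spots well above background, and 0 of these spots were saturated.

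No collagen gene passed the test. In limma's fit, the adjusted p fell under 0.05 for 0 of the 39 and for 0 of all 20495 genes (0.0%). At an unadjusted p under 0.05 in limma were 5 collagen genes, or 12.8% of them, beside 372 genes or 1.82% of all genes. These were Col2a1, Col9a1 and Col9a3, lower in Rbpj-cKO on both arrays, and Col4a6 and Col8a1, higher on both. With each array centred on its median in place of loess the count was 0 of the 39, beside 172 of all genes. The adjusted p of each of the 39 was 1 in that fit. In whole ureters, fewer cells of a type and less RNA per cell cannot be told apart.

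By sign alone, 6 of the 39 genes (15.4%) were higher in Rbpj-cKO on both arrays, against 16.1% of all genes. A further 9 (23.1%) were lower on both, against 14.7% of all genes. Across the alternatives that keep the labelled dyes, the first count ran from 4 to 8 and the second from 8 to 11. The other 24 (61.5%) had opposite signs, against 69.2% of all genes. Of those 24, 19 were higher in Rbpj-cKO in the male pair and 5 in the female pair, where all genes divided into 7021 and 7158. Counting genes that reached 1.5-fold in both pairs with one sign, 0 collagen genes did so in the higher direction (0.132% of all genes) and 0 in the lower (0.0634%). On replicate 1 alone 0 members reached 1.5-fold, beside 1.75% of all genes. On replicate 2 alone 4 did, Col9a2, Col6a2, Col25a1 and Col8a1, beside 3.0% of all genes.

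The median log2 ratio of the 39 genes was 0.064 on replicate 1, -0.12 on replicate 2 and -0.026 for the mean of both. All genes had medians of 0.0012, 0.0046 and -0.0033. The median SD between the arrays was 0.18 for collagen genes and 0.14 for all genes, while the median SD between spots of one probe within an array was 0.042 and 0.046 for collagen genes.

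**Figure D1:**
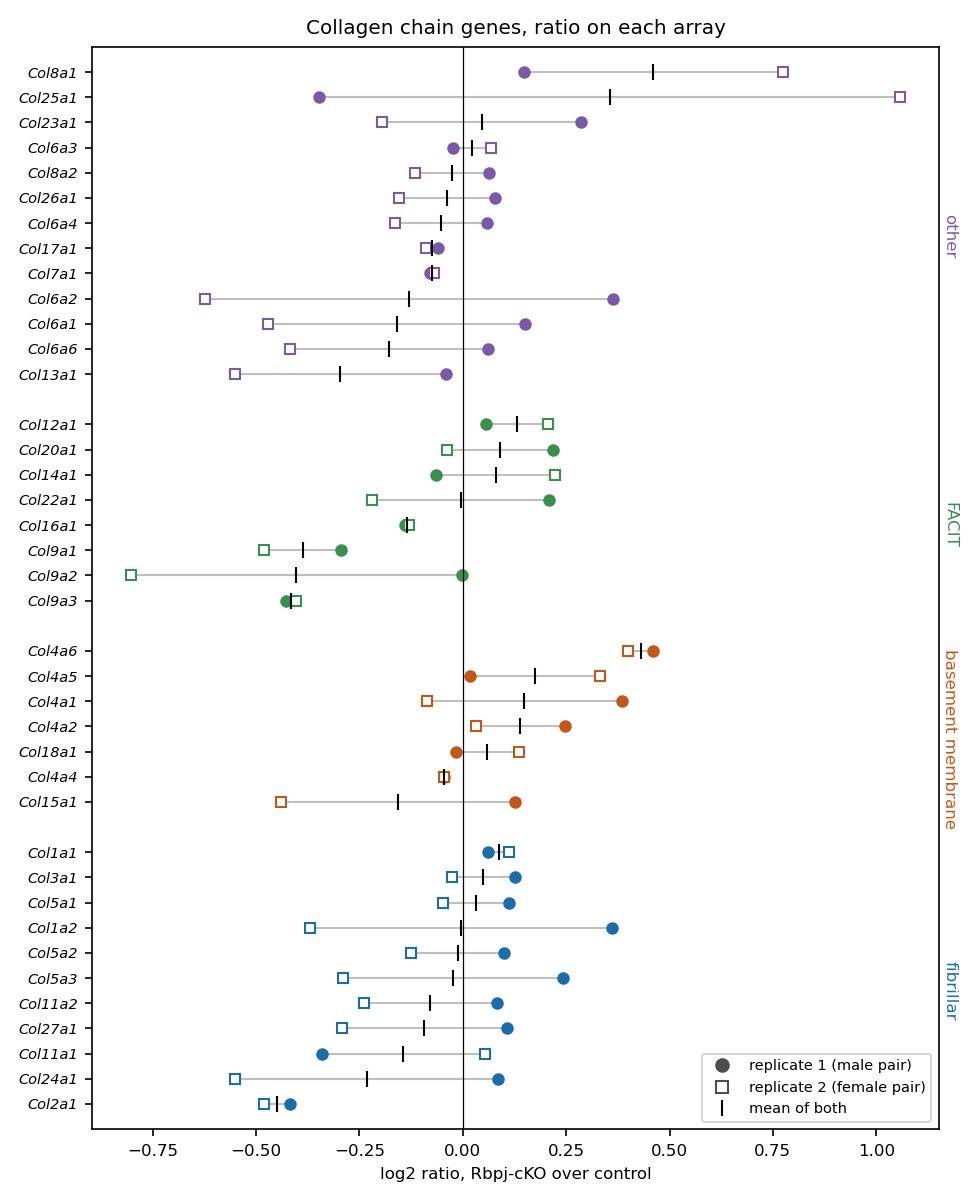
Log2 ratio of Rbpj-cKO over control (horizontal axis) for the 39 collagen chain genes past the filter, grouped by class and ordered by mean. Filled circles are replicate 1, open squares replicate 2 and short bars their mean; 24 genes have their symbols on opposite sides of 0, and Col2a1, Col9a1, Col9a3 and Col4a6 have both well to one side.

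Col2a1 and the type IX chains, which belong to cartilage-type fibrils, had means from -0.39 to -0.45. Type II collagen forms the core of these fibrils, type XI sits inside it, and type IX coats its surface; these 6 genes were put together after their values were seen and are given as a description. Of the 6, 4 were lower in Rbpj-cKO on both arrays, 0 were higher on both and 2 had opposite signs. The shares of all genes were 14.7%, 16.1% and 69.2%. Of the 4, Col9a2 was nearly level on replicate 1, at -0.0019. The medians of the 6 genes were -0.32 on replicate 1, -0.44 on replicate 2 and -0.40 for the mean.

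Col2a1, which encodes the only chain of type II collagen, gave processed signals of 2023 in male Rbpj-cKO and 2719 in male control. In the female pair it gave 2006 and 2814. Both control channels were above both Rbpj-cKO channels. Such an order compares channels of different arrays and dyes, and the share of all genes that show it was not counted. It is therefore a description, here and for Col9a3, Col4a6 and Col8a1 below. The same separation of channels occurred in Col13a1 and Col17a1, both dim and lower in Rbpj-cKO. It also occurred in Col4a5, higher in Rbpj-cKO, where male Rbpj-cKO (917.3) was barely above male control (916.8). The log2 ratios of Col2a1, -0.42 and -0.48, averaged -0.45 ± 0.045 (SD, n = 2), a 1.37-fold lower level, with an adjusted p of 1 in limma. The SD between its spots was 0.027 on replicate 1 and 0.0086 on replicate 2. The single probe lies at chr15:97806071-97806130 on the minus strand of mm9.

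The 3 chains of type IX collagen each had a mean below 0. Col9a1 gave 3654 in male Rbpj-cKO and 4529 in male control, and 2401 and 3279 in the female pair. Within each pair Rbpj-cKO was below control, but the male Rbpj-cKO channel was above the female control. The ratios were -0.29 and -0.48, with a mean of -0.39 ± 0.13 (SD, n = 2) and an adjusted p of 1 in limma. Its second probe did not pass the filter. Col9a3 gave the dimmer signals of 68.7 and 101.9 in the male pair and 50.2 and 72.3 in the female pair, with both Rbpj-cKO channels below both controls. Its ratios of -0.43 and -0.40 lay within 0.026 of each other, closer than its spots within an array, whose SD was 0.099 and 0.13. Col9a2 gave 4708 and 4726 in the male pair, which are nearly equal, and 2525 and 4346 in the female pair. Its ratios were -0.0019 and -0.80, so that the mean of -0.40 ± 0.57 (SD, n = 2) came from the female pair. The sign of Col9a2 on replicate 1 turned with the processing, over a range of -0.0056 to 0.20 across 10 settings.

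The type XI chains did not share a direction. Col11a1 gave 378.6 in male Rbpj-cKO and 492.8 in male control, then 386.1 and 365.7 in the female pair, and ratios of -0.34 and 0.053. Col11a2 gave 55.6 and 53.0, then 42.4 and 53.4, and ratios of 0.082 and -0.24. The groups overlapped for both genes.

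**Figure D2:**
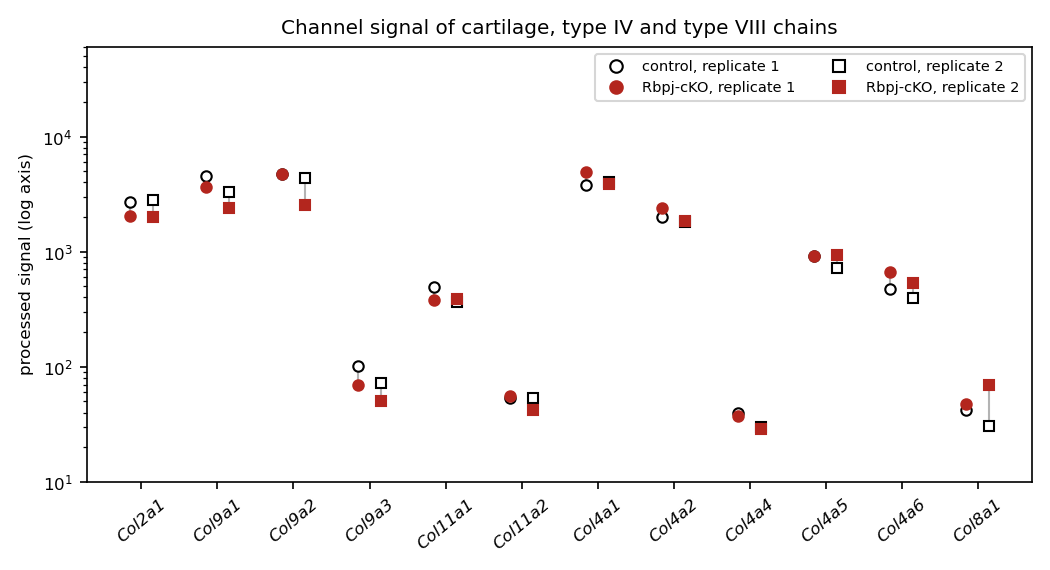
Processed signal in each of the 4 channels (vertical log axis) for the type II, IX and XI chains, 5 type IV chains and Col8a1. Open symbols are control and filled red symbols Rbpj-cKO, with circles for replicate 1 and squares for replicate 2; grey lines join the channels of an array. Col2a1 and Col9a1 have the red symbol below the open one on both arrays, and Col4a6 and Col8a1 have it above. Signals of different probes are not comparable with one another.

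Cartilage markers outside the collagen family were read beside these chains, because type II and IX collagens are best known from cartilage. Of 10 listed markers 7 were measured, and Matn1, Matn3 and Snorc were not well above background. Of the 7, 1 was higher, 3 were lower and 3 had opposite signs, beside 16.1%, 14.7% and 69.2% of all genes. The list's medians were -0.024 in the male pair and -0.10 in the female pair. Sox9, a transcription factor that drives Col2a1 in cartilage and is also made in ureteric tissue, had -0.11 and -0.19. Acan, the main cartilage proteoglycan, had 0.090 and -0.14 at a dim 17.8 to 24.8. Most of the list's summed signal was Sox5, the 1 marker higher on both arrays, with ratios of 0.19 and 0.023. Sox5 gave 20755 in Rbpj-cKO and 18573 in control in the male pair, and 17185 and 16641 in the female pair. The whole list summed to 23615 and 21633, then 19693 and 19408, so the sum mainly follows that gene. The part of the cartilage markers in the ratios of types II and IX was not tested.

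The major fibril chains were close to 0 in the mean. Of the 11 fibrillar genes 1 was higher on both arrays, 1 was lower and 9 had opposite signs. The shares of all genes were 16.1%, 14.7% and 69.2%. Of the 9 fibrillar genes with opposite signs 8 were higher in the male pair, where all genes divided into 7021 and 7158. The class had medians of 0.10 on replicate 1, -0.24 on replicate 2 and -0.023 for the mean. Col1a1, a chain of type I collagen, the main fibril collagen of connective tissue, gave 23156 and 22919 in the male pair and 19951 and 18012 in the female pair, with ratios of 0.062 and 0.11, which took opposite signs with median centring (0.44 and -0.26). Its partner chain Col1a2 gave 52026 in Rbpj-cKO and 44607 in control in the male pair, and 36724 and 44505 in the female pair. The ratios of Col1a2 were 0.36 and -0.37, with a mean of -0.0048 ± 0.52 (SD, n = 2), so the 2 chains of 1 trimer were alike in the mean and unlike on each array. Col3a1, the chain of type III collagen of elastic and hollow organs, had 0.13 and -0.027, from signals of 31294 and 30667 and of 25783 and 24886. The ratios rest on loess-normalized intensities and the signals on the scanner software's dye normalization, so ratios near 0, as here, can differ from them in sign.

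Type V collagen nucleates type I fibrils. Its chains Col5a1, Col5a2 and Col5a3 had ratios of 0.11 and -0.047, 0.10 and -0.12, and 0.24 and -0.29. All of these were above 0 in the male pair and below it in the female pair. Col24a1 and Col27a1, fibrillar chains of developing bone and cartilage, had 0.086 and -0.55, and 0.11 and -0.29. Col24a1 gave 345.5 and 330.7 in the male pair and 239.2 and 352.9 in the female pair, where the female Rbpj-cKO channel stands alone below the others.

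The fibrillar chains, with medians above 0 in the male pair and below it in the female pair, were set beside the marker lists, some of which ran the same way and others not. For the counts below, 16.1% of all genes were higher on both arrays, 14.7% were lower and 69.2% had opposite signs. The 10 skeletal muscle markers had medians of 0.64 in the male pair and -0.95 in the female pair, with 10 of 10 of opposite sign and none at 0. Their summed signal was 9519 in Rbpj-cKO and 5043 in control in the male pair, and 4222 and 11031 in the female pair. The 6 erythroid markers had medians of 0.40 and -0.67, with 5 of opposite sign. They summed to 102138 in Rbpj-cKO and 60545 in control in the male pair, and to 41307 and 80306 in the female pair. The 7 fibroblast markers had medians of 0.045 and -0.46, with 4 of opposite sign, 2 lower and 1 higher on both arrays. Their summed signal in Rbpj-cKO and control was 97858 and 94389 in the male pair and 72681 and 80344 in the female pair. All 7 were measured. Medians also lay above 0 in the male pair and below it in the female pair for smooth muscle (0.14 and -0.32), endothelium (0.13 and -0.16), pericytes (0.080 and -0.023) and the adrenal and gonad list (0.030 and -0.15). The nephron list ran the other way (-0.13 and 0.14). Medians were below 0 on both arrays for bone (-0.050 and -0.13) and urothelium (-0.022 and -0.16). The part of these lists in the collagen ratios was not tested.

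**Figure D3:**
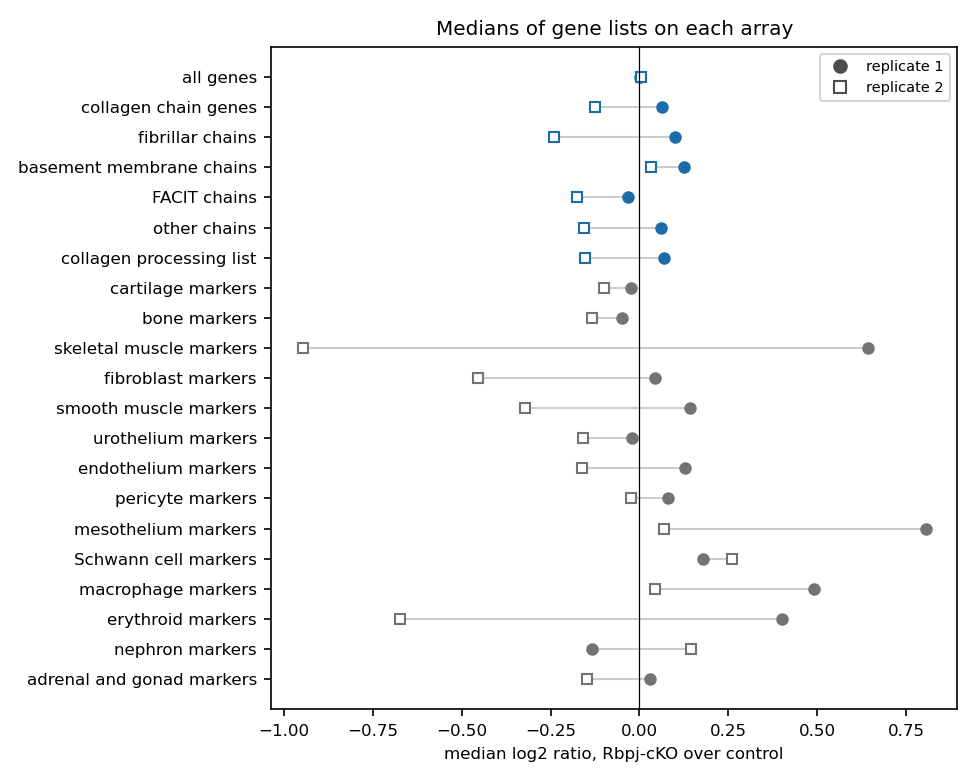
Median log2 ratio of Rbpj-cKO over control (horizontal axis) on replicate 1 (filled circles) and replicate 2 (open squares) for all genes, the collagen classes and processing list (blue) and the marker lists of cell types (grey). Fibrillar chains lie at 0.10 and -0.24 and skeletal muscle markers at 0.64 and -0.95, while basement membrane chains lie above 0 on both arrays. With median centring in place of loess, the basement membrane median on replicate 2 is below 0.

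With loess, the basement membrane chains had medians above 0 on both arrays, at 0.13 and 0.032, and of 0.14 for the mean. With median centring, replicate 2 was below 0 for Col15a1 (-0.46), Col4a1 (-0.30), Col18a1 (-0.17), Col4a2 (-0.15) and Col4a4 (-0.038). Only Col4a5 (0.15) and Col4a6 (0.22) were then above 0 on it. The class median on replicate 2 was thus below 0 in that setting, while that of the mean was 0.13. With loess, 3 of the 7 measured genes were higher on both arrays, 1 was lower and 3 had opposite signs. The shares of all genes were 16.1%, 14.7% and 69.2%. All 3 that were higher were type IV chains, of which Col4a2 turned to opposite signs with median centring (0.41 and -0.15). Of the marker lists, those of Schwann cells (medians 0.18 and 0.26, with 3 of 4 genes higher on both arrays), macrophages (0.49 and 0.044, with 3 of 5) and mesothelium (0.81 and 0.070, with 2 of 5) were also above 0 on both. Summed signals in Rbpj-cKO and control for Schwann cells were 31652 and 31045 in the male pair, and 28265 and 24789 in the female pair. For macrophages they were 4597 and 3222, then 3291 and 3176. Mesothelium gave 3481 and 2494, then 2742 and 2534. The part of these lists in the type IV ratios was not tested. Col4a6, whose chain joins that of Col4a5 in basement membranes of smooth muscle and bladder, gave 659.3 in male Rbpj-cKO and 476.6 in male control, and 533.5 and 398.0 in the female pair. Both Rbpj-cKO channels were above both control channels, an order that was not counted across all genes. The ratios of Col4a6, 0.46 and 0.40, averaged 0.43 ± 0.044 (SD, n = 2), a 1.35-fold higher level, with an adjusted p of 1 in limma. The probe behind these values lies at chrX:137599990-137600049 on the minus strand of mm9. A second, dimmer Col4a6 probe at chrX:137601433-137601491 gave 64.0 and 65.2 in the male pair and 55.8 and 55.3 in the female pair, with ratios of 0.0025 and -0.017, so the probes of this gene disagreed.

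Col4a5, the neighbour of Col4a6 on the X chromosome, gave 917.3 and 916.8 in the male pair and 928.0 and 718.0 in the female pair, and ratios of 0.016 and 0.33. The female control alone was below the other channels. Col4a1 and Col4a2 encode the chains of the common type IV network and share the promoter region printed above. Col4a1 gave 4939 in Rbpj-cKO and 3778 in control in the male pair, and 3842 and 4052 in the female pair, with ratios of 0.38 and -0.086. Col4a2 gave 2396 and 2004, then 1838 and 1809, with ratios of 0.25 and 0.032. Both genes of the pair had the higher ratio in the male pair, and their means were 0.15 and 0.14. Col4a4, a chain of the specialised network of the kidney glomerulus, had -0.046 and -0.045 at a dim 28.5 to 39.6. Its second measured probe had opposite signs (0.083 and -0.26), and with flagged spots kept the ratio on replicate 1 was 0.0096. Its neighbour Col4a3 was not well above background in any channel.

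Col18a1 and Col15a1 encode the basement membrane collagens with endostatin-like ends. Col18a1 gave 10635 and 10724 in the male pair and 10529 and 9556 in the female pair, with ratios of -0.017 and 0.13, and its second probe had 0.086 and 0.048. Col15a1 was dim, at 54.8 and 49.5 in the male pair and 29.7 and 46.7 in the female pair, and had ratios of 0.13 and -0.44. A neighbouring probe that overlaps it gave 0.075 and -0.38, and the Gly-X-Y probe shown above gave -0.14 and -0.059. Col4a5 and Col4a6 are X-linked, and the channels of replicate 2, though both labelled female, differed in Y-linked signal as given above.

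FACIT chains other than type IX were near 0 in the mean. The class as a whole had 1 gene higher, 4 lower and 3 of opposite sign, beside 16.1%, 14.7% and 69.2% of all genes. Its medians were -0.033 and -0.17, and 3 of the 4 lower genes were the type IX chains. The other was Col16a1, with ratios of -0.14 and -0.13 by its brightest probe and negative ratios on both arrays by its other 2 measured probes. Col12a1, whose product coats type I fibrils in tendon and mesenchyme, gave 2142 and 2060 in the male pair and 1954 and 1698 in the female pair, with ratios of 0.057 and 0.21. Col14a1, which has a like role, gave 10357 and 10832, then 9915 and 8537, with ratios of -0.065 and 0.22. A second Col14a1 probe gave 582.1 and 472.7, then 419.5 and 685.8, with ratios of 0.30 and -0.68, the opposite sign on each array. Col20a1 had 0.22 and -0.037, and Col22a1, made at the junction of muscle and tendon, had 0.21 and -0.22.

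**Figure D4:**
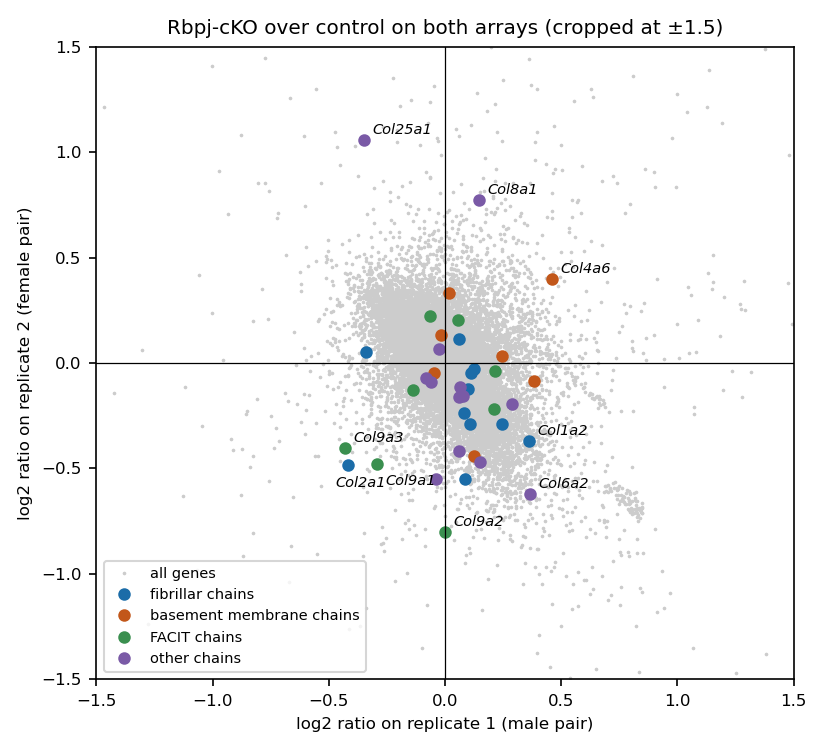
Log2 ratio of Rbpj-cKO over control on replicate 1 (horizontal axis) against replicate 2 (vertical axis) for all genes (grey) and for the collagen chain genes by class (coloured); axes are cropped at 1.5 in both directions. Collagen genes spread over all 4 quadrants (r = -0.0535), with Col2a1, Col9a1 and Col9a3 at the lower left, Col4a6 at the upper right, and Col25a1 and Col6a2 in opposite corners.

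Among the remaining chains, type VI collagen makes beaded microfibrils around cells. All 5 of its measured chains had opposite signs, as did 69.2% of all genes. The medians of these chains were 0.061 and -0.42. Col6a1 gave 15644 and 14082 in the male pair and 9029 and 12475 in the female pair, with ratios of 0.15 and -0.47. Its neighbour Col6a2 gave 2689 and 2100, then 1526 and 2327, with ratios of 0.36 and -0.62. For both genes the female Rbpj-cKO channel was below the other 3. Col6a3, the chain that completes the trimer, was near 0, at -0.024 and 0.068, from signals of 9885 and 9877 and of 8048 and 7835. A dimmer Col6a2 probe had 0.016 and 0.074. Col6a6 had 0.061 and -0.42 by 1 probe and 0.23 and -0.041 by the other, and Col6a4 had 0.059 and -0.16.

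Col8a1 encodes a chain of the short network collagen of vessel walls. It was dim, at 47.1 in Rbpj-cKO and 41.7 in control in the male pair and 69.4 and 30.8 in the female pair. Both Rbpj-cKO channels were above both controls, and the share of all genes with this order was not counted. The ratios of 0.15 and 0.77 averaged 0.46 ± 0.44 (SD, n = 2), the highest mean in the family, with an adjusted p of 1 in limma. The mean ranged from 0.44 to 0.69 across 10 settings. Its partner Col8a2 had 0.064 and -0.12.

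Col25a1, a membrane-spanning collagen of neurons and developing muscle, had the widest gap between the arrays. Its brightest probe gave 294.1 in Rbpj-cKO and 385.4 in control in the male pair, and 384.0 and 171.3 in the female pair. The groups overlapped, and the ratios were -0.35 and 1.06. The other 3 probes of the gene gave -0.0084 and 0.16, -0.25 and 0.44, and -0.16 and 0.12. All 4 probes were below 0 in the male pair and above it in the female pair, by amounts that differed several-fold. The brightest lies at chr3:129885684-129885743, upstream of the others, which span chr3:130270497-130301697 on the plus strand of mm9.

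Epithelial anchoring collagens were near 0. Col7a1, which forms anchoring fibrils under stratified epithelia, gave 742.0 and 798.7 in the male pair and 618.0 and 631.7 in the female pair, with ratios of -0.080 and -0.069, of opposite signs with median centring (0.073 and -0.25). Col17a1, a hemidesmosome protein of basal epithelial cells, was dim, at 15.98 to 18.45 in all channels, with -0.061 and -0.088. Col13a1, a membrane collagen of the neuromuscular junction, had -0.040 and -0.55, and its female Rbpj-cKO channel was well above background on only 1 of 4 spots. With the deposited log ratio its values were -0.19 and -1.47, which takes the mean from -0.30 to -0.83. The membrane collagen Col23a1 had 0.29 and -0.19, and Col26a1 had 0.079 and -0.15.

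**Figure D5:**
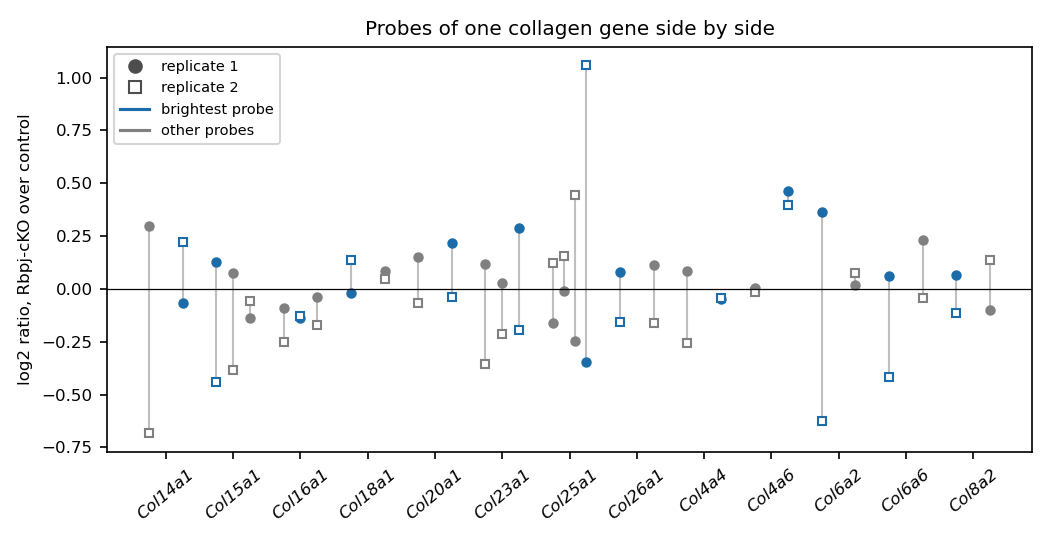
Log2 ratio of Rbpj-cKO over control (vertical axis) for every measured probe of the 13 collagen genes with more than 1 probe past the filter; circles are replicate 1, open squares replicate 2, blue marks the brightest probe and grey the others. Probes of Col16a1 and Col26a1 lie together, while those of Col4a6, Col6a2, Col14a1 and Col25a1 lie apart.

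Base composition of the probes was set beside the gap between arrays. The median GC content was 41.7% for collagen probes and for all genes. The correlation of GC content with the ratio on replicate 1 minus that on replicate 2 was 0.397 across the 39 collagen genes and 0.235 across 20495 genes. Both are descriptions across probes that share the same 2 hybridisations, and the part of base composition in the ratios was not tested.

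Enzymes and receptors that make, cross-link, bind or degrade collagen were read from a list of 41 genes, of which 39 were measured (Mmp13 and Tll2 were not). Of the 39, 0 had an adjusted p under 0.05 in limma. By sign, 4 (10.3%) were higher on both arrays, 7 (17.9%) were lower and 28 (71.8%) had opposite signs, against 16.1%, 14.7% and 69.2% of all genes. These shares lie near those of all genes, so the genes below are named for their values only. The medians were 0.069 and -0.15. Of the 17 chaperones and modifying enzymes of the endoplasmic reticulum 0 were higher and 3 were lower on both arrays. Those 3 were the lysyl hydroxylase Plod2 (-0.10 and -0.37), the prolyl 3-hydroxylase P3h2 (-0.12 and -0.23) and the collagen galactosyltransferase Colgalt2 (-0.13 and -0.17). The highest among genes with the same sign on both arrays were the lysyl oxidase Loxl3 (0.081 and 0.13), the collagen receptor Ddr1 (0.15 and 0.025) and the propeptide proteinase Adamts3 (0.069 and 0.11). The collagen chaperone Serpinh1 had -0.10 and 0.16, and the collagenase Mmp14 had 0.46 and -0.65. All 3 measured degrading enzymes were above 0 in the male pair and below it in the female pair.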

How the data were processed

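Ureter RNA was measured on 2 two-colour Agilent arrays. Mean and background intensity per spot, the scanner software's processed intensity, its log10 ratio of red over green and its flags, coded as other values of 0 or 1, are as deposited, per the file headers. The submitters' processing notes name Agilent Feature Extraction, version 10.7.3.1. The authors also deposited a signed score per probe, read here as a linear fold from its values and used only as an alternative.

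Spots flagged as outliers were left out. Intensities were background-corrected with normexp (offset 50) and loess-normalized within each array with control spots at weight 0. Ratios were turned to Rbpj-cKO over control (red over green on replicate 1, green over red on replicate 2), and the 4 spots of a probe were averaged. The brightest probe past the filter stood for its gene. Each gene's mean over both arrays was set against 0 in limma 3.58.1 (lmFit, eBayes) under R 4.3.3, two-sided and with Benjamini-Hochberg adjustment over 20495 genes. The fit had a residual df of 1 and a prior df of 5.57. The code was tested on simulated data. With 2 arrays, their number limits the precision.

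The collagen genes and all lists were chosen with earlier results of these data known. Genes were named by a rule: a set of 19 chains, any chain at least 1.5-fold on either array, and the 2 highest and 2 lowest means of each class; other chains are named to account for all members. Alternatives were the deposited log ratio, a normexp offset of 16, median centring, no or a stricter (3 spots) filter, the mean of all probes, flagged spots kept, the score table, a trended robust fit, replicate 2 unturned, and each replicate left out.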

Additional observations from a re-analysis of the deposited data

Results flagged for a closer look

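For 3 collagen genes both arrays showed at least a 1.2-fold difference but in opposite directions. The male and the female pair also differ in dye orientation, which cannot be told apart from sex. The difference between the pairs was not tested, since each holds 1 array. The log2 ratio on replicate 1 minus that on replicate 2 was 0.73 for Col1a2 (0.36 and -0.37), 0.99 for Col6a2 (0.36 and -0.62) and -1.41 for Col25a1 (-0.35 and 1.06). These 3 genes are 7.69% of the 39 collagen genes, where 1033 of all genes (5.04%) met the same condition.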

How the results depend on the processing

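Among 30 named collagen genes, 16 had opposite signs on the arrays, so their means rest on the balance of both. In 9 alternatives, leaving aside the unturned array and the left-out replicates, no collagen gene passed in limma (0 with an adjusted p under 0.05) and the lowest adjusted p was 0.9999 to 1. The sign of the mean reversed for Col1a2 with median centring (0.00091), Col5a2 in the score table (0.0069), Col14a1 as the mean of all probes (-0.057) and Col6a6 with flagged spots kept (0.089). Collagen genes at an unadjusted p under 0.05 in limma numbered 5 at first, 0 with median centring and 4 to 6 in the other 8. Col4a6 as the mean of its probes was 0.21, the lowest of its range, which reached 0.45. Col13a1 had a mean of -0.83 with the deposited log ratio and in the score table, against -0.30, and no value under the stricter filter. Across all genes, 2 had an adjusted p under 0.05 with the deposited log ratio and 5 with the trended robust fit.

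With replicate 2 unturned, against the dyes in the labels, 19 collagen genes were above 0 in both pairs, 5 were below it, and the lowest adjusted p of these genes in limma was 0.21. Of all genes, 7021 were then above 0 in both pairs and 7158 below it. At an unadjusted p under 0.05 in limma were 7 collagen genes and 4314 of all genes, against 5 and 372 with the labelled dyes. Medians were then 0.093 for all collagen genes, 0.11 for fibrillar, 0.031 for basement membrane, 0.044 for FACIT and 0.11 for other chains. Reversed means were -0.025 for Col1a1, 0.37 for Col1a2, 0.32 for Col24a1, 0.032 for Col2a1, 0.11 for Col5a2, 0.28 for Col15a1, -0.076 for Col18a1, -0.16 for Col4a5, -0.074 for Col12a1, -0.14 for Col14a1, 0.093 for Col9a1, 0.40 for Col9a2, 0.26 for Col13a1, 0.014 for Col17a1, -0.70 for Col25a1, 0.31 for Col6a1, 0.49 for Col6a2, -0.046 for Col6a3, 0.24 for Col6a6 and -0.31 for Col8a1. That setting swaps the sign of 1 array by construction. The cause of the other reversals was not tested.

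Leaving out each replicate in turn gave medians of 0.032 to 0.13 for basement membrane chains and of -0.17 to -0.033 for FACIT chains, with no test on 1 array. Without replicate 1 the medians were -0.24 for fibrillar and -0.15 for other chains, and without replicate 2 they were 0.10 and 0.061. The reported fit is itself paired, since every ratio is taken within 1 array. No paired analysis was possible beyond it, because a replicate block would leave no residual degree of freedom. Dim chains such as Col13a1, Col17a1 and Col4a4 lie near the background, where ratios are drawn towards 0.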
